A study of Mus musculus with 4 samples.

Results

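The radial spokes are the T-shaped complexes that reach from the outer doublet microtubules of a motile cilium or sperm flagellum towards the central pair of microtubules. They pass mechanical signals from the central pair to the dynein arms, and mutations in genes of the spoke head or stalk cause primary ciliary dyskinesia in humans. The binding of RFX2, an RFX-type (Regulatory Factor X) DNA-binding protein that acts in ciliated cells and in developing male germ cells, was described here at 10 genes for radial spoke proteins, of 21938 protein-coding genes in the annotation. The genes were taken by name from the known composition of the spoke. The rule used no measured value, but the choice was made with earlier results of these data known. They encode proteins of the spoke head (Rsph1, Rsph4a, Rsph6a, Rsph9 and Rsph10b), of the stalk (the gene pair Rsph3a and Rsph3b), and of the neck or stalk (Rsph14, Dydc1 and Nme5). A promoter was taken as 1000 bp upstream to 500 bp downstream of any annotated transcription start site (TSS).

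RFX2 had been mapped by ChIP-seq, the sequencing of chromatin fragments pulled down with an antibody to the protein, in decapsulated testes of wild type (WT) mice at postnatal day 29 to 30, on a mixed background of C57BL/6, 129/Sv and FVB/N. The study's text describes germ cells of younger mice, and this difference could not be resolved from the peaks. The 4 samples were 2 replicates of RFX2 ChIP and 2 inputs (chromatin that was not immunoprecipitated). All 4 were WT, so no sample without RFX2 served as a background, and the inputs entered only through the authors' peak calling. The lists held 39825 peaks in replicate 1 (median width 199 bp), 21274 in replicate 2 (181 bp) and 2726 in a further list, called the combined list here (886.5 bp). The number of reads behind the lists is unknown. From the names of its peaks, the combined list was taken to share reads with the replicates, and it is no independent replication of them. Peak lists hold no expression values, so the tissue label could not be checked against marker genes, and binding in few cells cannot be told apart from weak binding in many cells of the testis.

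A combined peak lay in the promoters of 6 of the 10 genes, namely Rsph1, Rsph4a, Rsph10b, Rsph14, Dydc1 and Nme5. Over all protein-coding genes the share was 5.26% (1153 of 21938). In replicate 1, 7 of the 10 had a promoter peak, against 14% of all genes. In replicate 2 the count was again 7 of 10, against 11.3%. These were the same 7 genes, the 6 above and Rsph9, and a peak in both replicates was found for 9.05% of all genes. The other 3 genes, Rsph3a, Rsph3b and Rsph6a, had no promoter peak in either replicate, as was the case for 83.8% of all genes. The genes were chosen with earlier results of these data known, so these counts are given as a description, without a test.

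**Figure D1:**
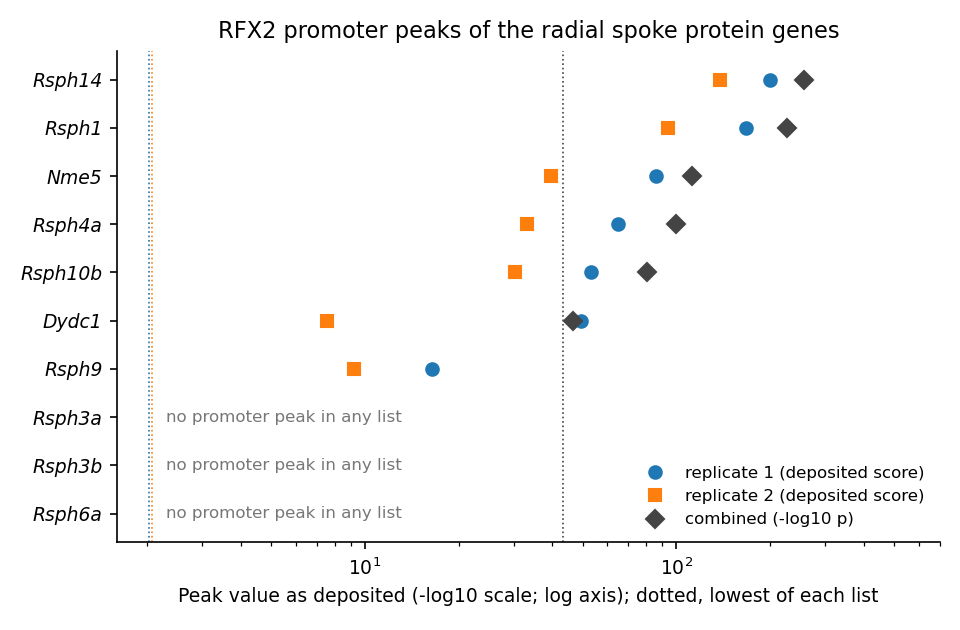
Value of each gene's promoter peak in replicate 1 (circles), replicate 2 (squares) and the combined list (diamonds), on a log axis of the deposited −log10 values, with the lowest value of each list as a dotted line. Rsph14 and Rsph1 lie highest in all 3 lists, Rsph9 is present in the replicates only, and 3 genes have no promoter peak.

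Rsph14 and Rsph1 had the strongest peaks of the group. The replicate lists give 1 score per peak on a −log10 scale, which may be that of a q-value or of a p-value, and ranks are given within each list since the lists differ in their number of peaks and range of scores. Rsph14, an armadillo-repeat protein of the spoke, had a score of 199 in replicate 1 (rank 128 of 39825) and of 138 in replicate 2 (rank 29 of 21274). Its combined peak (chr10:75031927-75033363 in mouse build GRCm38) had a −log10 p of 257, rank 96 of 2726, and was 26.9-fold enriched over local background. Rsph1, a head protein with MORN repeats, scored 168 (rank 217) and 93.9 (rank 145). Its combined peak (chr17:31276785-31278031) had a −log10 p of 227, rank 168, with 17.5-fold enrichment. Both genes therefore lay in the top 1% of peaks in each replicate, at 0.321% and 0.136% for Rsph14 and at 0.545% and 0.682% for Rsph1.

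Nme5, Rsph4a and Rsph10b followed in that order in all 3 lists. Nme5, which belongs to the nucleoside diphosphate kinase family, scored 85.7 in replicate 1 (rank 870) and 39.4 in replicate 2 (rank 729). Its combined peak had a −log10 p of 112, rank 864, and 15.1-fold enrichment. Rsph4a, a head protein that carries disease mutations in humans, scored 64.7 (rank 1300) and 33.1 (rank 925). Its combined peak (chr10:33904497-33905449) had a −log10 p of 99.5, rank 1044, and 23.2-fold enrichment, the second highest fold of the group after Rsph14. Rsph10b, another head protein with MORN repeats, scored 53.2 (rank 1675) and 30.3 (rank 1031), and its combined peak (chr5:143932565-143933436) had a −log10 p of 80.1, rank 1409, with 17.5-fold enrichment. The order was the same in both replicates, but with a single peak call per replicate the neighbours in it could not be tested.

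Dydc1 and Rsph9 were the weakest of the bound genes, and the lists disagreed about their order. Dydc1, which encodes a protein of the spoke neck, scored 49.6 in replicate 1 (rank 1817) but 7.53 in replicate 2 (rank 5516). The combined peak of Dydc1 (chr14:41072559-41073319) had a −log10 p of 46.5, rank 2578, and 10.7-fold enrichment, close to the lowest −log10 p in that list, 43.2. Rsph9, a small head protein, scored 16.4 in replicate 1 (rank 5315) and 9.19 in replicate 2 (rank 3881). Rsph9 was higher than Dydc1 in replicate 2 and lower in replicate 1, and only Dydc1 was in the combined list. Rsph9 thus belongs to the 847 genes (3.86% of all) with a promoter peak in both replicates and none in the combined list, and the nearest combined peak lay 109217 bp from its TSS, at Lrrc73.

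Among the 1985 genes with a promoter peak in both replicates, the median score was 38.9 in replicate 1 and 19.4 in replicate 2, and the median ratio of the 2 scores was 1.93. The 10th and the 90th percentile of the ratio were 0.913 and 3.65. Of the spoke genes, 6 had ratios from 1.44 (Rsph14) to 2.17 (Nme5). Dydc1 stood apart with a ratio of 6.58, and 1.11% of the 1985 genes had a higher one. The peaks of both replicates overlapped at all 7 spoke genes, and at 1901 of the 1985 genes. At the spoke genes the peak centres lay 55 bp apart in the median, against 62 bp over the 1985 genes. With a single library per replicate, these ratios carry no error.

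**Figure D2:**
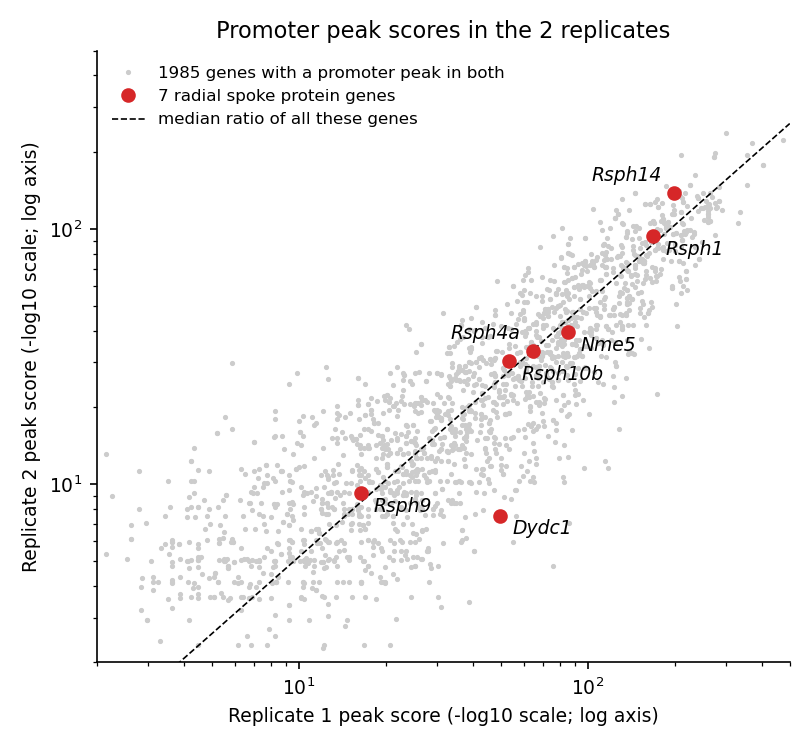
Promoter peak score in replicate 1 against replicate 2, both on log axes, for 1985 genes (grey) and the 7 bound radial spoke protein genes (red), with the median ratio of 1.93 as a dashed line. Dydc1 lies below the other 6, at 49.6 in replicate 1 and 7.53 in replicate 2.

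Within the combined list the medians of the spoke genes lay close to those of all genes. The median −log10 p of the 6 genes was 105.7 and that of the 1153 genes with a combined promoter peak was 105.5, and the median fold was 17.5 and 15.0, respectively. Rsph14 was exceeded in −log10 p by 6.68% of the 1153 genes and Rsph1 by 11.5%, whereas 96.6% exceeded Dydc1.

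All the combined summits lay close to a TSS. The summit was 12 bp upstream of the nearest TSS for Rsph14, 24 bp upstream for Rsph10b, 25 bp upstream for Dydc1 and 133 bp upstream for Rsph4a. It lay 15 bp downstream for Rsph1 and 5 bp downstream for Nme5. For Rsph9 the centre of the peak was at −104 bp in replicate 1 and at −13 bp in replicate 2. No peak of these 7 genes met the promoter of another protein-coding gene. The Rsph10b summit lay in an annotated exon of Pms2, a mismatch repair gene that is transcribed in the same direction and overlaps the start of Rsph10b, but not in the Pms2 promoter.

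**Figure D3:**
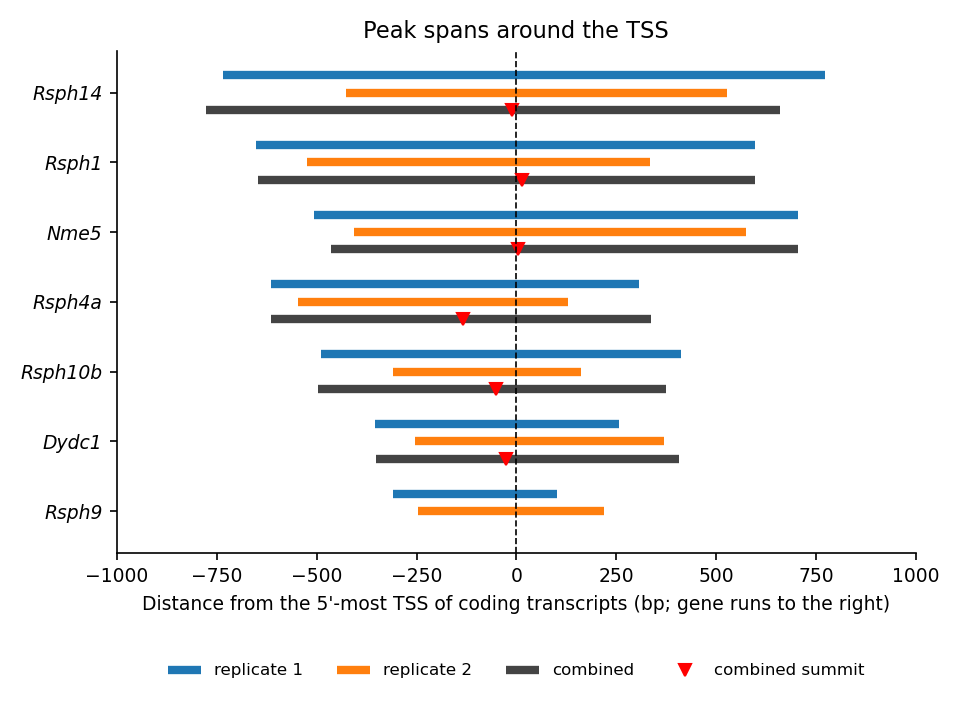
Span of the promoter peaks of the 7 bound genes in replicate 1 (blue), replicate 2 (orange) and the combined list (grey), as distance in bp from the 5′-most TSS of coding transcripts, with combined summits as red triangles. Each span covers the TSS, and the Rsph4a summit lies farthest from it, 133 bp upstream.

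RFX proteins bind the X-box, an inverted repeat of a pair of half-sites. The most frequent perfect inverted repeat of 14 bp within 100 bp of the combined summits was taken as its sequence. It occurred at 163 of 2726 summits, and the next most frequent one at 11. Its half-sites, the first and the last 6 bases, face each other across a spacer of 2 bp:
X-box: GTTGCCATGGCAAC
With at most 3 mismatches to the whole 14 bp, on either strand, an X-box lay within 100 bp of the summit of 75.5% of all combined peaks and of 58.9% of the 1003 combined peaks in promoters, but in 0.990% of windows 1000 bp from the summits. Of the 6 spoke genes with a combined peak, 1 had such a site, Rsph4a, with the substitutions C6T, C11A and A12G (counted from the 5′ end of the X-box). In 1501 bp around the 5′-most TSS, 8.96% of all protein-coding genes held one.

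Near the other summits, and in the overlap of the replicate peaks of Rsph9, which has no combined summit, the best sites lay further from the repeat or had another spacer. Those of 6 genes are printed on the strand of the gene, 5′ to 3′, with the matched site in capitals, from RefSeq's GRCm38 genome. Rsph4a (chr10:33904986-33905059, plus strand), Dydc1 (chr14:41072822-41072894, plus) and Rsph14 (chr10:75032587-75032630, minus) are shown upstream of the TSS. Rsph1 (chr17:31277323-31277352, minus), Rsph9 (chr17:46144185-46144214, minus) and Rsph10b (chr5:143933028-143933056, plus) are shown in short, since these sites lie in annotated exons:
Rsph4a: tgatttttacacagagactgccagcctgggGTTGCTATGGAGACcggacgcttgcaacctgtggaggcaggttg
Rsph1: cgggcagtGTCTCCATGACGACgcgggacg
Rsph9: ggctcaggGTCTCCATGGAGACagcttcta
Dydc1: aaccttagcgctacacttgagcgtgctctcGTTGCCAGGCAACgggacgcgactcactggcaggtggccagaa
Rsph14: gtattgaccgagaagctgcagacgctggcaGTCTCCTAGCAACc
Rsph10b: ttgtttcaGTTGCTTAGAGACcacctagc
The first 3 have the 2-bp spacer of the X-box. The last 3 are 13 bp long, with a spacer of 1 bp.

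The Dydc1 site holds both half-sites without a mismatch, 53 bp upstream of the TSS and 28 bp upstream of the summit, although it fails the 14-bp search because of its spacer. The sites were scored with a matrix of the half-sites learnt on the peaks of other genes, with a spacer of 0 to 4 bp. A site passed when it scored above 99% of the windows 1000 bp from summits. This matrix and the 14-bp matrix below were learnt on 2052 sites with at most 3 mismatches to the X-box, and so with its 2-bp spacer. The sites came from the same combined peaks, so the shares over those peaks follow in part from the training, whereas the spoke genes were left out of it. By this score 70.6% of the combined peaks in promoters passed, and among those that passed the spacer was 2 bp in 76.6% and 1 bp in 15.8%. Of the spoke genes, 3 of 6 passed, namely Dydc1, Rsph14 and Rsph4a. Dydc1 reached the highest score possible, as did 58 of the 1003 promoter peaks (itself included), 8 of them with a spacer of 1 bp. The Rsph14 site lay 8 bp upstream of the TSS and 4 bp from the summit, and it had 3 half-site mismatches. The best sites of Rsph10b and Nme5 also had a spacer of 1 bp, with 4 half-site mismatches each, and did not pass. The Rsph1 site at its TSS had 4 half-site mismatches. It passed a matrix of the whole 14 bp, as did Rsph4a and, in the overlap of its replicate peaks, Rsph9, while 66.2% of the combined peaks in promoters did. The Rsph9 overlap of 350 bp is longer than the windows of 100 bp to each side on which the threshold was set. The pass of Rsph9 is therefore not directly comparable with the others. These matrix searches were chosen after the 14-bp search had been seen. Within 100 bp of the summit, Rsph14 and Rsph1, with the strongest peaks, thus had half-site scores below those of 62.7% and 83.6% of the promoter peaks, and Dydc1, with the weakest combined peak of the group, had this highest score. Farther from its summit, but inside its combined peak, Rsph1 held a site with 1 half-site mismatch and a spacer of 4 bp (chr17:31276934-31276949). That site lay 441 bp downstream of the 5′-most TSS and 19 bp downstream of another annotated TSS of Rsph1. A spacer of 4 bp was found in 0.424% of the promoter peaks that passed.

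**Figure D4:**
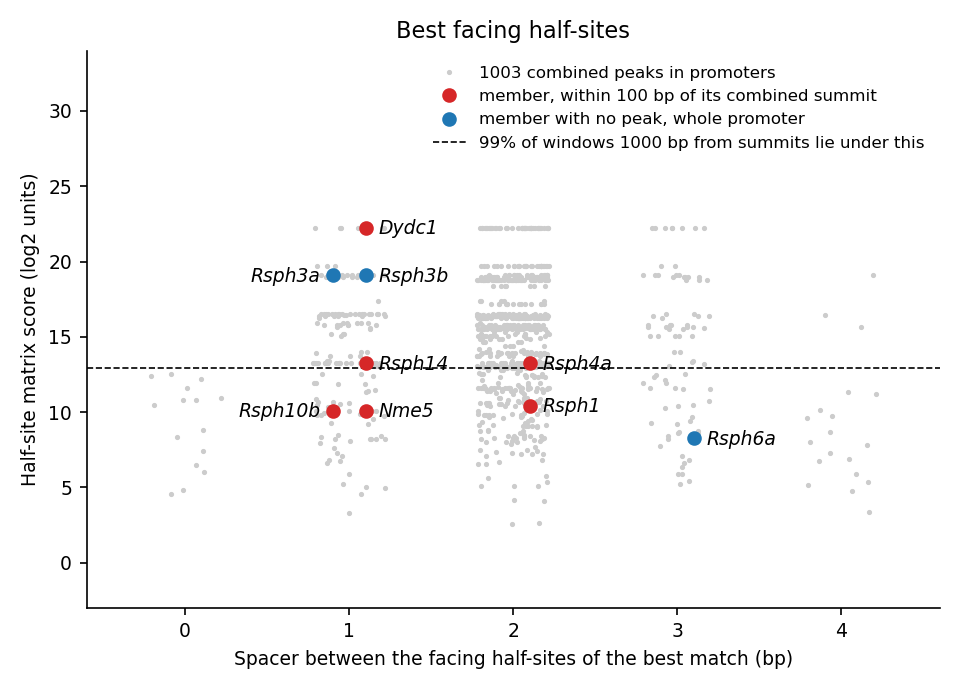
Half-site matrix score (log2 units) of the best facing half-sites against their spacer in bp, for 1003 combined peaks in promoters (grey, spread sideways), for the 6 spoke genes with a combined peak (red) and for the whole promoters of the 3 without a peak (blue). Dydc1 and Rsph14 (spacer 1 bp) and Rsph4a (2 bp) lie above the dashed threshold, which was set on windows of 100 bp to each side, and the blue points come from a longer search of 1501 bp and are not comparable with it.

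The 3 genes without a promoter peak differed in their promoter sequence. Rsph3a and Rsph3b, which encode the anchoring stalk protein RSPH3, lie on the same chromosome and have promoters that align at 93.8% identity over 1503 columns. Both promoters held the same 13-bp site, with a spacer of 1 bp and 1 half-site mismatch (chr17:7945980-7946008, plus strand, and chr17:6948327-6948355, minus strand), which overlaps annotated exons of both genes:
Rsph3a: aacctcggGTTGCTCGGCAACcgatgggg
Rsph3b: aacctcggGTTGCTCGGCAACcgatgggg
The centre of the site lay 380 bp downstream of the 5′-most TSS of Rsph3a and 341 bp downstream of that of Rsph3b. The nearest other annotated TSS was 1 bp downstream of it in Rsph3a and 15 bp upstream of it in Rsph3b. In this search of 1501 bp, the score of the site was exceeded in the promoters of 0.549% of protein-coding genes, and 13.9% of all promoters held a site over the threshold. Of the 10 spoke genes 6 did, namely Rsph3a, Rsph3b, Rsph4a, Rsph14, Dydc1 and Rsph1, whose site with the 4-bp spacer was exceeded in 1.49% of genes. Within 100 bp of the 5′-most TSS, the window length on which the threshold was set, 4.06% of all genes held one. Of the 10 spoke genes, only Rsph4a, Rsph14 and Dydc1 did, and neither Rsph3a (score 3.65) nor Rsph3b (4.08) did. The authors discarded reads that mapped to more than 1 location. Of the 32-bp words in the promoter, 55.9% in Rsph3a and 57.8% in Rsph3b occurred once in the genome. Of the 20 words that span the site 2 did so in each gene. Of the 182 words within 100 bp of the site, 55.5% did so in Rsph3a and 70.3% in Rsph3b. In the other 8 genes the share of promoter words that occurred once ran from 93.7% (Dydc1) to 100% (Rsph1 and Rsph10b). The part of repeated sequence in the absence of peaks at Rsph3a and Rsph3b was not tested.

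**Figure D5:**
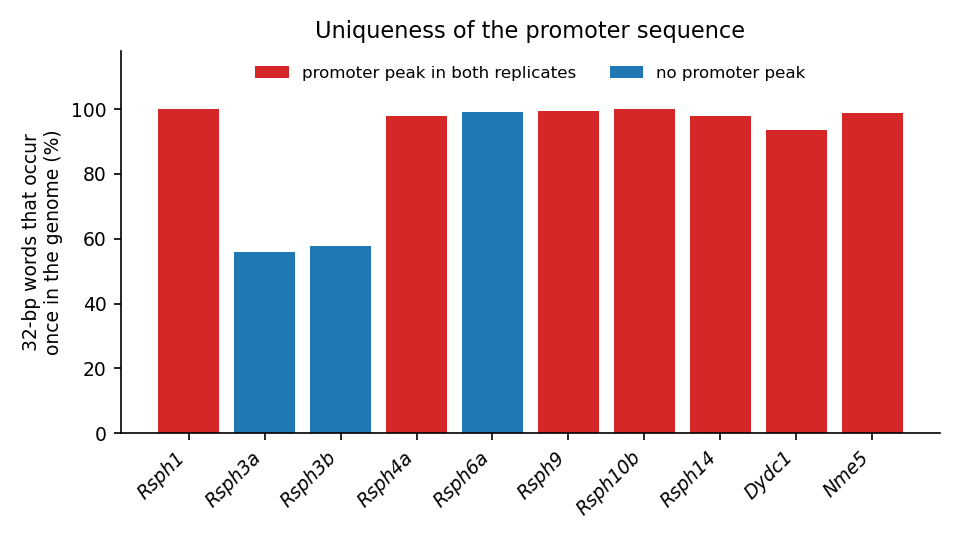
Percentage of 1470 words of 32 bp in each promoter that occur once in the genome, for genes with a promoter peak in both replicates (red) and genes without one (blue). Rsph3a (55.9%) and Rsph3b (57.8%) lie below all others, and Rsph6a (99.1%) does not.

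For Rsph6a, a paralog of Rsph4a expressed in the testis, 99.1% of the words occurred once. Its best half-site pair had 3 mismatches, did not pass and was exceeded in 61.7% of protein-coding genes. The nearest peak to an Rsph6a TSS was 17909 bp away and 857 bp past the end of the gene (combined rank 267, −log10 p 196). The summit of that peak lay 242 bp from the TSS of Dmwd. For Rsph3a, the nearest combined peak (rank 914, −log10 p 108) was 21444 bp upstream, in an intron of E430024P14Rik and 2253 bp from the TSS of Tagap. The replicate 1 peak there scored 75.2 and the replicate 2 peak 4.14. For Rsph3b, the nearest combined peak was 797799 bp away, in an intron of Fndc1, and the nearest replicate peaks scored 6.29 and 2.96 at 82970 bp and 58168 bp. The promoter rule was therefore not a close call for any of the 3, since their nearest peak was 17909 bp or more from a TSS, while every bound gene had its peak across the TSS.

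Rsph14 was the only one of the 10 with combined peaks inside the gene and outside the promoter. Both had a −log10 p of 46.96 and 9.19-fold enrichment, at rank 2532. One lay 116 bp from the TSS of Gnaz, a G protein alpha subunit gene that lies within Rsph14 on the opposite strand, and the other lay 16229 bp from that TSS, inside both genes. The same places held peaks that scored 33.5 and 25.4 in replicate 1 and 24.2 and 22.8 in replicate 2. Upstream of the Rsph14 promoter, the nearest combined peak was at Rab36, 4095 bp from the Rsph14 TSS (rank 384). The nearest replicate 2 peak was also at Rab36, with a score of 61.2. The nearest replicate 1 peak was a separate one that did not overlap these, at 3762 bp and with a score of 5.69. Rsph1 had replicate peaks alone inside the gene and outside the promoter, of which the strongest scored 18.8 in replicate 1 and 9.08 in replicate 2. Rsph10b and Nme5 each had such a peak in replicate 1 only, with scores of 3.58 and 4.47.

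Other genes of the spokes and of their base on the doublet microtubule were listed from the known structure, and 7 of 9 had a combined promoter peak, against 5.26% of all genes. These were Dnajb13 and Ropn1l, which encode neck and stalk proteins, Iqub, Lrrc23 and Cfap61, which encode proteins of particular spokes, and Maats1 (also called Cfap91) and Wdr66 (Cfap251), which encode base proteins. Wdr66 had the strongest peak of all the spoke genes, with scores of 275 in replicate 1 and 198 in replicate 2 (ranks 26 and 6) and a combined −log10 p of 337 (rank 22). In −log10 p, Maats1 (248) lay between Rsph14 and Rsph1, and Lrrc23 (192) below both. Cfap206 resembled Rsph9, with scores of 12.4 and 7.66 in the replicates and no combined peak. Dydc2, the neighbour of Dydc1, had none, and the Dydc1 peak ended 3351 bp from its TSS. A 14-bp X-box lay within 100 bp of the summit in 4 of the 7 (Lrrc23, Cfap61, Maats1 and Wdr66). Of the combined peaks in promoters 58.9% had one, and of the spoke protein genes 1 of 6. These 4 passed the half-site matrix, as did Dnajb13 (spacer 3 bp) and Ropn1l (1 bp), but not Iqub. Of the spoke protein genes 3 of 6 passed it, and of the combined peaks in promoters 70.6%. The differences were not tested. The Cfap61 peak met the promoter of Crnkl1 as well. Over both lists together, 13 of 19 genes had a combined promoter peak and 15 of 19 had one in both replicates.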

How the data were processed

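ChIP-seq of RFX2 had been made from testes of WT mice, with 2 ChIP replicates and 2 inputs. The titles of the samples gave their groups and replicate numbers. As the methods of the study and the labels state, the authors mapped reads with Bowtie 0.12.7, discarded reads with several locations, and called peaks against input with MACS2 2.0.10.20130520. Base calls came from CASAVA 1.8.2. The library of replicate 2 was sequenced in a second run that held human DNA, and its reads with a match in the human genome were dropped, which can remove mouse reads of conserved sequence in replicate 2 only. The deposited replicate lists give a −log10 value of a p-value or q-value. The deposited combined list gives a score, a fold enrichment (a ratio), −log10 p, −log10 q and the summit. It is attached to replicate 2, but its peak names and their numbers, up to 29491, differ from a call on that replicate. It was read as the upper part of a call on the reads of both replicates. The study's methods describe a choice of peaks by their reproducibility between the replicates. How that choice relates to the combined list could not be resolved from the peaks. No reads or depth per peak were used.

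Peaks were matched to GRCm38 (files: Ensembl release 70) with GENCODE mouse release 21, by at least 1 bp of overlap with a promoter of any TSS, and the counts of genes were checked with bedtools 2.31.1. Sequence analyses used Python 3.11.15 and pysam 0.24.0, and the Rsph3a and Rsph3b promoters were aligned with Biopython 1.88. The 5′-most TSS served for X-box shares over promoters and for the 32-bp words. The mismatch count of the 14-bp X-box search was checked at sites planted in known places of random sequence, which does not cover the matrix and half-site searches. No test was made, since there is 1 library per replicate and the genes, lists and searches were chosen with earlier results of these data known. All 10 genes, the 9 other spoke genes and the nearest genes of absent or shared peaks are named. Alternatives were the window, the TSS, the overlap rule, the upper 50% of each list, the mismatch limit and the search window. The matrix searches, the half-site pairs and the search of whole promoters of the genes without a peak were added after the data were seen.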

Additional observations from a re-analysis of the deposited data

How the results depend on the processing

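The counts of spoke genes with a promoter peak stayed at 6 (combined) and 7 (replicate 1, replicate 2 and both) under other promoter rules. These were a promoter of 500 bp upstream to 50 bp downstream, the 5′-most TSS alone and the peak centre in the promoter. Over all protein-coding genes the combined share was 4.98% with the narrower promoter and 4.48% with the 5′-most TSS, against 5.26%. It was not computed for the peak centre. Leaving out a replicate only returns the count of the other one, 7 in each case, and says nothing about stability. With the upper 50% of the combined list, 4 of the 10 and 5 of the 9 other spoke genes kept a peak. The share of all genes under that cut was not computed. The number of genes with an X-box at the combined summit, 1 of 6, rested on the search: it was 0 with at most 2 mismatches and 3 with at most 4. In searches chosen after seeing the data, it was 2 with the matrix of 14 bp and 3 with the half-site matrix and a free spacer. With facing half-sites at no more than 2 mismatches it was 1. Of the combined peaks in promoters, 66.2%, 70.6% and 64.5% passed these searches, in that order. The 14-bp search with at most 3 mismatches was passed by 58.9% of them, and the shares at 2 and 4 mismatches were not computed. No paired analysis was possible because the results come from no test. Depth is unknown, so the absence of a peak says only that none was listed.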
